A study of Mus musculus with 20 samples.

Results

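Voltage-gated sodium, voltage-gated calcium and potassium channels were encoded by 132 of the 38414 genes listed in any of the expression tables. They were taken by symbol alone: Scn genes ending in a or b, Kcn genes, and the Cacna, Cacnb, Cacng and Cacna2d genes. No measured value entered that rule, although it was set with earlier results of these data known. The set held 10 sodium channel pore subunits (Scn, alpha), 4 sodium channel beta subunits, 10 calcium channel pore subunits (Cacna1), 4 alpha2delta, 4 beta and 8 gamma subunits. It also held 30 voltage-gated potassium channel pore subunits, 10 electrically silent modifier subunits, 11 auxiliary subunits, 12 calcium- or sodium-activated potassium channel subunits, 15 inward rectifiers and 14 two-pore potassium channels.

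A voltage-gated channel is built around a pore-forming subunit that opens when the membrane depolarises, and auxiliary subunits set how much of it reaches the surface and how fast it opens and closes. Sodium channels carry the upstroke of the action potential, calcium channels couple it to transmitter release and gene expression, and potassium channels end it and hold the resting potential. In the developing brain many of these genes are switched on as progenitors leave the cell cycle and become neurons. Several gamma subunits (Cacng2, Cacng3, Cacng4, Cacng5, Cacng7 and Cacng8) act mainly as partners of AMPA-type glutamate receptors.

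All tissue came from wild-type C57BL/6J mice. In MAPIT-seq a primary antibody on a fixed section recruits a fusion of 2 deaminases (rAPOBEC1-pAG-hADAR2), which converts C to U and A to inosine in nearby RNA, seen in reads as A-to-G and C-to-T changes. Anti-G3BP1, against a core protein of stress granules, was the tested antibody and rabbit IgG its control, each bridged to the fusion by a guinea pig anti-rabbit secondary, on tissue fixed with 0.2% formaldehyde. Untreated libraries carry no fixation, antibody or fusion in the labels, although the treatment label of those from the fixed embryo calls them fixed. Poly(A) RNA gave 20 libraries in 10 groups of 2. The fixed E10.5 embryo and the fresh-frozen E10.5 embryo each had G3BP1, IgG and untreated groups, and E12.5 brain and E16.5 brain each had G3BP1 and IgG groups. Nothing in the labels says that replicates came from separate animals, so each p-value below speaks of the spread among these libraries alone, which could be technical.

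Marker genes were checked before any comparison. The 6 heart markers summed to 3268 to 5182 TPM, a per-length measure of transcript abundance, in the fixed E10.5 embryo, but to 8.49 to 29.1 TPM in libraries with the E10.5 fresh-frozen label, 6.54 to 7.84 TPM in E12.5 brain and 19.1 to 26.6 TPM in E16.5 brain. The 4 liver and yolk sac markers were likewise at 425 to 959 TPM in the fixed embryo and 4.94 to 11.1 TPM in the libraries labelled fresh-frozen. The 6 neuron markers summed to 485 to 1056 TPM in the fixed embryo and 3621 to 5076 TPM in the libraries labelled fresh-frozen, against 2726 to 3242 TPM in E12.5 brain and 4759 to 4843 TPM in E16.5 brain. The content of the fresh-frozen E10.5 libraries thus goes against a whole embryo of that stage, and they are called by their label throughout and never used as an earlier stage of the fixed embryo. Replicates had Pearson correlations of 0.938 to 0.991 across genes on the log2 TPM scale.

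The sequences below are sites of channel genes whose editing is described further on. Each is 30 bases of mRNA sense written in DNA letters, read from the GENCODE M21 transcripts (GRCm38), with the edited base, position 15, in capitals. The first 3 lie close together in the 3' UTR of Kcnd2 (gene at chr6:21215503-21729805, plus strand), which encodes a pore subunit of the dendritic A-type potassium current, and were the 3 channel sites with the largest excess of editing in G3BP1 libraries labelled fresh-frozen. The Scn2a, Cacna2d1 and Scn3a sites were picked once values had been seen, for the most edited reads of their gene in G3BP1 libraries. The Kcnk2 site is shown because it was the channel site edited most in IgG libraries of E16.5 brain.
Kcnd2 site A, chr6:21728862-21728862, A-to-G: tttcacccttgaatAtccgcagatgtgtct
Kcnd2 site B, chr6:21728835-21728835, A-to-G: acatttaagtgaaaAgtcttgctacctttt
Kcnd2 site C, chr6:21728828-21728828, A-to-G: actgtgtacatttaAgtgaaaagtcttgct
Scn2a coding site, chr2:65764602-65764602, plus strand, A-to-G: agaaggtttcgtctAtatataaaaaagaca
Scn2a 3' UTR site, chr2:65766838-65766838, plus strand, A-to-G: atagatggatagatAgaatcttactgaccc
Cacna2d1 3' UTR site, chr5:16374234-16374234, plus strand, A-to-G: tgggatcgtgttttAgggattcttttcatg
Scn3a 3' UTR site, chr2:65458383-65458383, minus strand, C-to-T: ggtaaaaatttacaCaactaaagaaaacct
Kcnk2 3' UTR site, chr1:189208231-189208231, minus strand, A-to-G: ggaggcttgggcttAcgtgatcatgtggca

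Channel transcripts were scarce in the fixed embryo and abundant in late brain. Summed over the set, they reached 644 to 786 TPM per library at E10.5 (fixed embryo), 1896 to 2150 TPM at E12.5 and 3288 to 3839 TPM at E16.5 (both brain), with 3624 to 4934 TPM in the libraries labelled fresh-frozen. At least 1 TPM in at least 2 libraries was reached by 71 of the 131 listed channel genes in the fixed embryo, 90 of 132 in E12.5 brain, 104 of 132 in E16.5 brain and 112 of 130 in the libraries labelled fresh-frozen. Those shares were 54.2%, 68.2%, 78.8% and 86.2%, against 69.9%, 52.1%, 53.7% and 68.2% of all listed genes in the same order. The rule asked for 2 of 6 libraries in each embryo and 2 of 4 in each brain. Listed genes numbered 27369 for the fixed embryo and 34527 to 34555 for the others, so the shares are not alike between tissues. Kcna10 was not listed for either embryo, and Kcnk16 was not listed for the fresh-frozen label. Transcripts of 10 channel genes in E12.5 brain and of 2 in E16.5 brain were listed at 0 in every library.

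A few accessory subunits led the set in each tissue on the TPM scale, which is per length. Cacng4 averaged 825 TPM in the libraries labelled fresh-frozen, 547 TPM in E12.5 brain and 486 TPM in E16.5 brain, and was the highest channel gene in each of these. Cacng7 led in the fixed embryo with a mean of 134 TPM. Cacnb3, the beta subunit that traffics neuronal calcium channels, was among the top 3 in every table, averaging 113 TPM in the fixed embryo, 266 TPM at E12.5, 413 TPM at E16.5 and 205 TPM under the fresh-frozen label. The plot of summed TPM by role shows each library: sodium channel pore subunits made up 11.3 to 17 TPM of each library of the fixed embryo, 49.99 to 72.6 TPM at E12.5 and 131 to 161 TPM at E16.5. Gamma subunits were the only role whose libraries overlapped between the brain stages, at 829 to 954 TPM in E16.5 brain and 809 to 872 TPM in E12.5 brain.

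**Figure D1:**
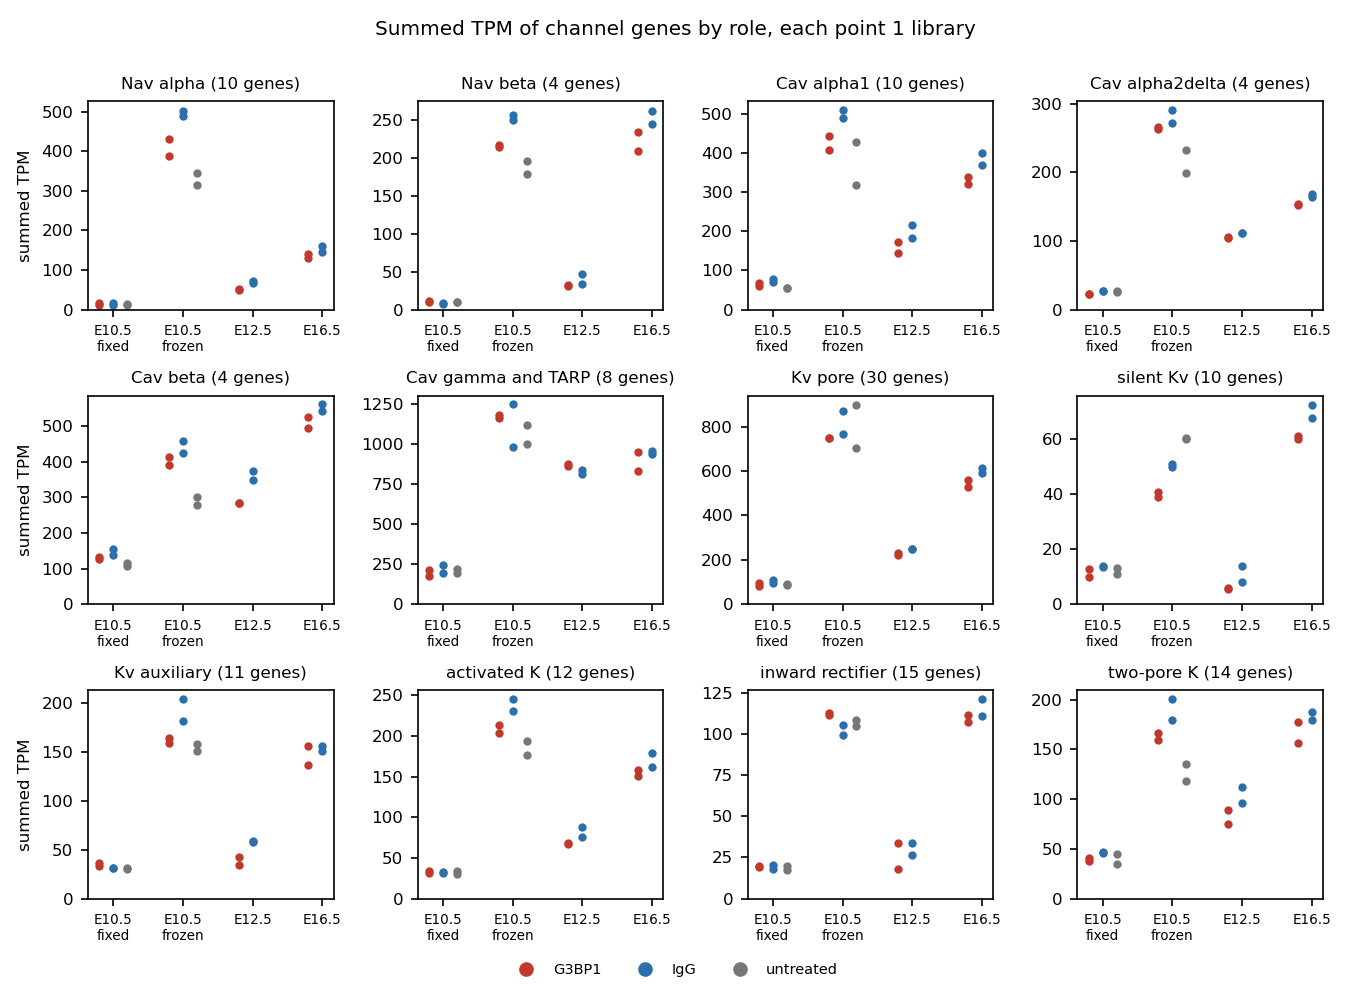
Summed TPM (y axis) of the channel genes of each role in every library, in order E10.5 fixed, E10.5 fresh-frozen label, E12.5 brain and E16.5 brain; each point is 1 library, coloured by antibody (G3BP1, IgG or untreated). Kv pore subunits lie at 82.6 to 109 TPM for the fixed embryo, 223 to 248 TPM at E12.5 and 528 to 615 TPM at E16.5, and the libraries labelled fresh-frozen lie above all of these at 704 to 898 TPM.

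The comparison of E16.5 with E12.5 brain asked how the set changes as the embryonic brain matures. Of 107 channel genes tested, 85 (79.4%) were higher and 1 was lower at E16.5 (limma on log2(TPM + 1), adjusted p under 0.05 over all genes, 4 antibody libraries against 4). Among all 20162 genes tested, 32.3% were called higher and 17.7% lower. The median log2 change was 1.42 over the channel genes and 0.17 over all genes. Setting the middle of the genes expressed in every library to no change took a common shift of 0.21. The channel median was then 1.31, with 80 of 106 tested channel genes called higher and 5 lower. Among all genes, 26.2% were then called higher and 24.1% lower. The stages were deposited in separate tables, so stage and table cannot be told apart, nor can more RNA per cell be told apart from more neurons in these bulk sections: the neuron markers also summed higher at E16.5, and the 6 progenitor markers lower, at 674 to 818 TPM against 2645 to 2951 TPM at E12.5. Their part in the channel result was not tested.

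Among sodium channels, 6 of 8 tested pore subunits and all 3 tested beta subunits rose. Scn3b, the beta subunit of early neurons, averaged 171 ± 14.9 TPM at E16.5 and 27.7 ± 6.01 TPM at E12.5 (SD, n = 4 each; log2 change 2.60 ± 0.12). Among the pores, Scn2a, the channel of immature axon initial segments, had 31.8 and 30.6 TPM in G3BP1 and 35.5 and 32.6 TPM in IgG libraries at E16.5 against 4.25, 4.57, 4.37 and 5.39 TPM at E12.5. The stages did not overlap (log2 change 2.58 ± 0.14, adjusted p = 2.33e-06). Scn3a, the embryonic pore, averaged 45.7 TPM at E16.5 and 19.8 TPM at E12.5 (1.20 ± 0.14), and Scn1a, the pore of inhibitory interneurons, 16.9 TPM at E16.5 and 3.50 TPM at E12.5 (2.03 ± 0.22). Scn8a, the pore of mature nodes and initial segments, had 28.7 to 41.4 TPM at E16.5 and was already at 23.7 to 31.8 TPM at E12.5, so the stages overlapped even though the call was made (0.37 ± 0.11, adjusted p = 0.0250). The peripheral or glial genes Scn11a (0.662 TPM at E16.5 and 1.07 TPM at E12.5) and Scn7a (0.274 TPM at E16.5 and 1.05 TPM at E12.5) were not called.

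**Figure D2:**
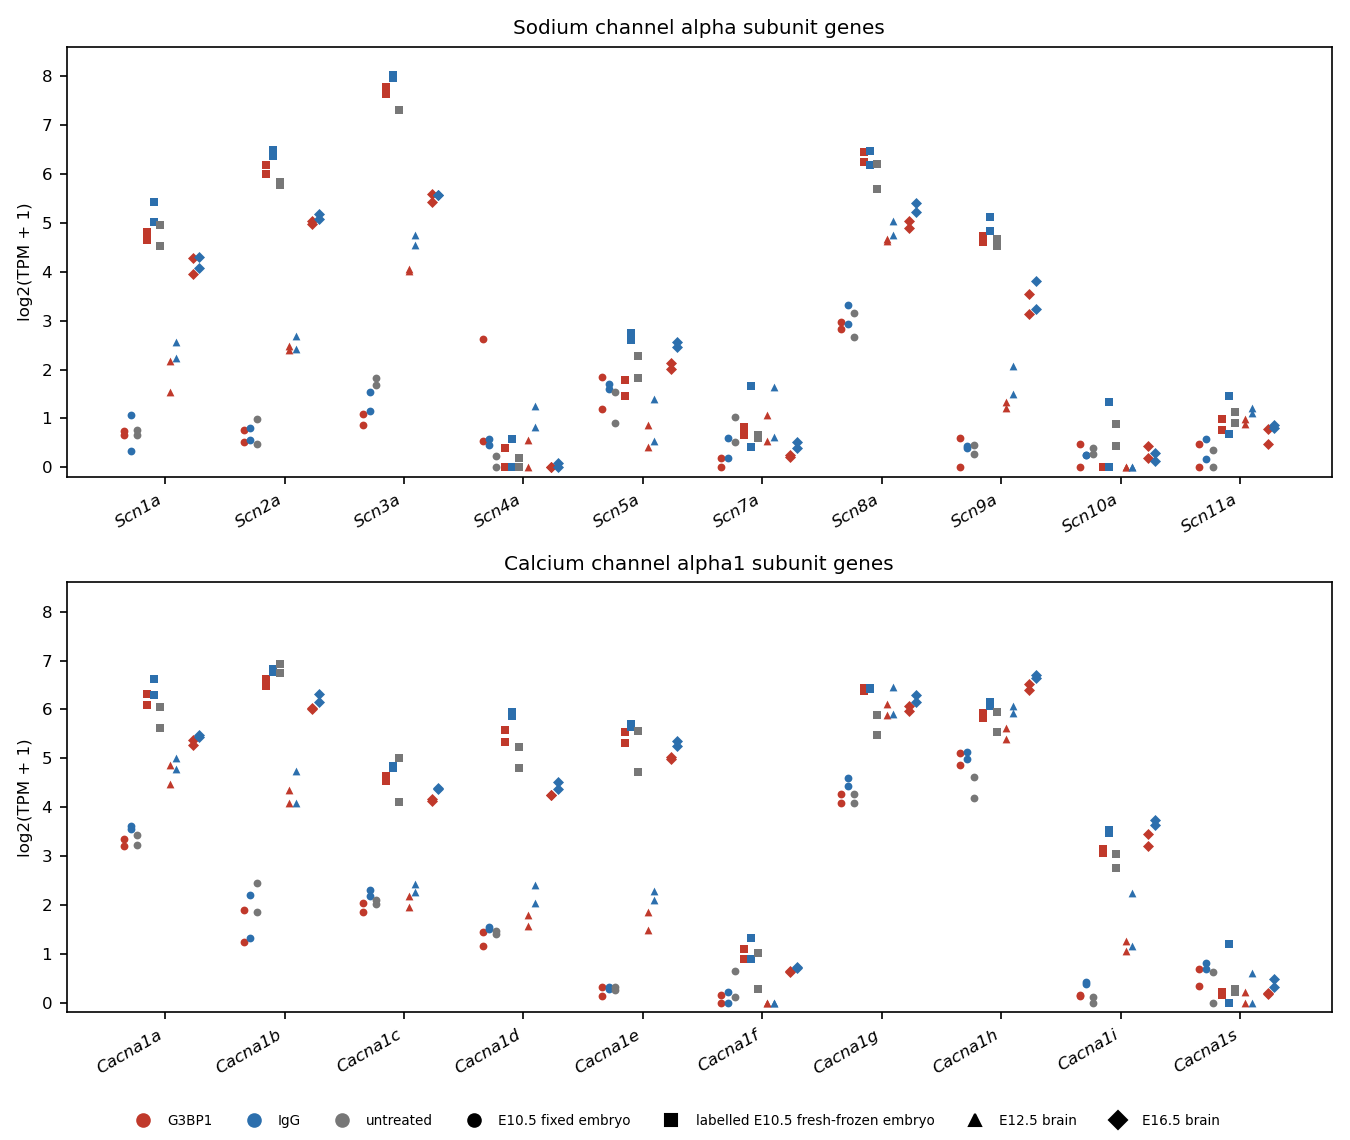
log2(TPM + 1) (y axis) of the 10 sodium channel and 10 calcium channel pore subunit genes in every library; each point is 1 library and the marker shape gives the table. Scn2a lies at 30.6 to 35.5 TPM in E16.5 brain and 4.25 to 5.39 TPM in E12.5 brain, while Cacna1g lies at 61.6 to 77.9 TPM in E16.5 brain and 58.5 to 87.1 TPM in E12.5 brain, with the stages overlapping.

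Most calcium channel genes rose too. Of the pore subunits, 7 of 8 tested were called higher, led by Cacna1e, the R-type pore, with 31.8 and 30.5 TPM in G3BP1 and 40.1 and 37.1 TPM in IgG libraries at E16.5 against 1.79, 2.62, 3.31 and 3.85 TPM at E12.5. No E12.5 library came near any E16.5 library, and the log2 change was 3.23 ± 0.16 (adjusted p = 1.67e-06). The L-type pores Cacna1d (19.4 TPM at E16.5 and 2.96 TPM at E12.5, log2 change 2.40 ± 0.18) and Cacna1c (18.3 TPM at E16.5 and 3.64 TPM at E12.5, 2.06 ± 0.16) rose as well. So did the presynaptic N-type pore Cacna1b (69.2 TPM at E16.5 and 19.3 TPM at E12.5, 1.81 ± 0.15). Cacna1g, a low-threshold T-type pore, was the exception among those tested, with means of 69.0 ± 6.89 TPM at E16.5 and 68.1 ± 13.4 TPM at E12.5 (SD, n = 4 each) and a log2 change of 0.03 ± 0.13 (adjusted p = 0.853). Another T-type pore, Cacna1h, was called at 0.81 ± 0.10 (94.0 TPM at E16.5 and 54.0 TPM at E12.5). All 3 tested alpha2delta and all 4 beta subunits rose, Cacnb3 by 0.64 ± 0.07. Of 7 gamma subunits tested 5 rose, while the 2 most abundant were not called: Cacng4 had 417 and 495 TPM in G3BP1 and 532 and 499 TPM in IgG libraries at E16.5 against 609, 611, 437 and 533 TPM at E12.5 (−0.17 ± 0.13, adjusted p = 0.303), and Cacng7 averaged 250 TPM at E16.5 and 237 TPM at E12.5 (0.10 ± 0.12, adjusted p = 0.537).

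Potassium channel genes, which were most of the 107 tested, gave 8 of the 10 largest increases. That ranking was among called genes with a mean of at least 5 TPM in the higher group and no overlap of groups. Calls of higher expression were made for 21 of 26 tested voltage-gated pores, 6 of 8 silent modifiers, 6 of 9 auxiliary subunits, 8 of 10 activated channel subunits, 9 of 11 inward rectifiers and 7 of 10 two-pore channels. Kcnd2, which carries the A-type current, had 40.1 and 36.0 TPM in G3BP1 and 44.5 and 41.5 TPM in IgG libraries at E16.5 against 5.52, 1.40, 2.26 and 5.54 TPM at E12.5 (log2 change 3.28 ± 0.33, adjusted p = 5.64e-05). Its 2 stages did not overlap, although the E12.5 replicates differed from each other several-fold. The Shaw-type pore Kcnc4, of brief action potentials, averaged 25.3 ± 2.83 TPM at E16.5 and 1.83 ± 1.71 TPM at E12.5 (3.44 ± 0.34), and Kcnh3, an ELK-type pore of the forebrain, 13.5 ± 0.799 TPM at E16.5 and 0.524 ± 0.367 TPM at E12.5 (3.28 ± 0.23). Of the modifiers, Kcng1 averaged 23.1 ± 1.86 TPM at E16.5 and 1.88 ± 0.988 TPM at E12.5 (3.13 ± 0.24). Among channels that set the resting potential, the log2 change was 3.22 ± 0.33 for Kcnj11, the pore of ATP-sensitive channels, 2.90 ± 0.25 for Kcnj3, a G protein-gated rectifier, 2.99 ± 0.35 for Kcnk3 and 2.97 ± 0.23 for Kcnk9, both acid-sensitive leak channels. Kcnj3 shares 31.1% of its exon bases with another annotated gene, so its reads cannot all be assigned to it without strand.

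The single channel gene called lower was Kcnk5, an alkaline-activated leak channel best known from kidney. It had 1.69 and 3.77 TPM in G3BP1 and 3.35 and 2.42 TPM in IgG libraries at E16.5, against 6.64, 8.97, 14.3 and 8.79 TPM at E12.5 (−1.47 ± 0.27, adjusted p = 0.00189), and the stages did not overlap. After the common shift, Kcnh2, Kcnn1, Kcnn4 and Kcnk10 were also called lower, by 0.41 to 0.77 on the log2 scale, so Kcnk5 was the only one called lower under both scalings. Channel partners outside the set moved in the same way: of 32 genes for ankyrins, adhesion molecules, intracellular FGFs, Hcn channels and other regulators, 31 were higher at E16.5 and Rem2 was not called. Kcnk4 was listed at 0 in all 4 libraries of E12.5 brain and averaged 3.46 ± 0.436 TPM at E16.5.

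**Figure D3:**
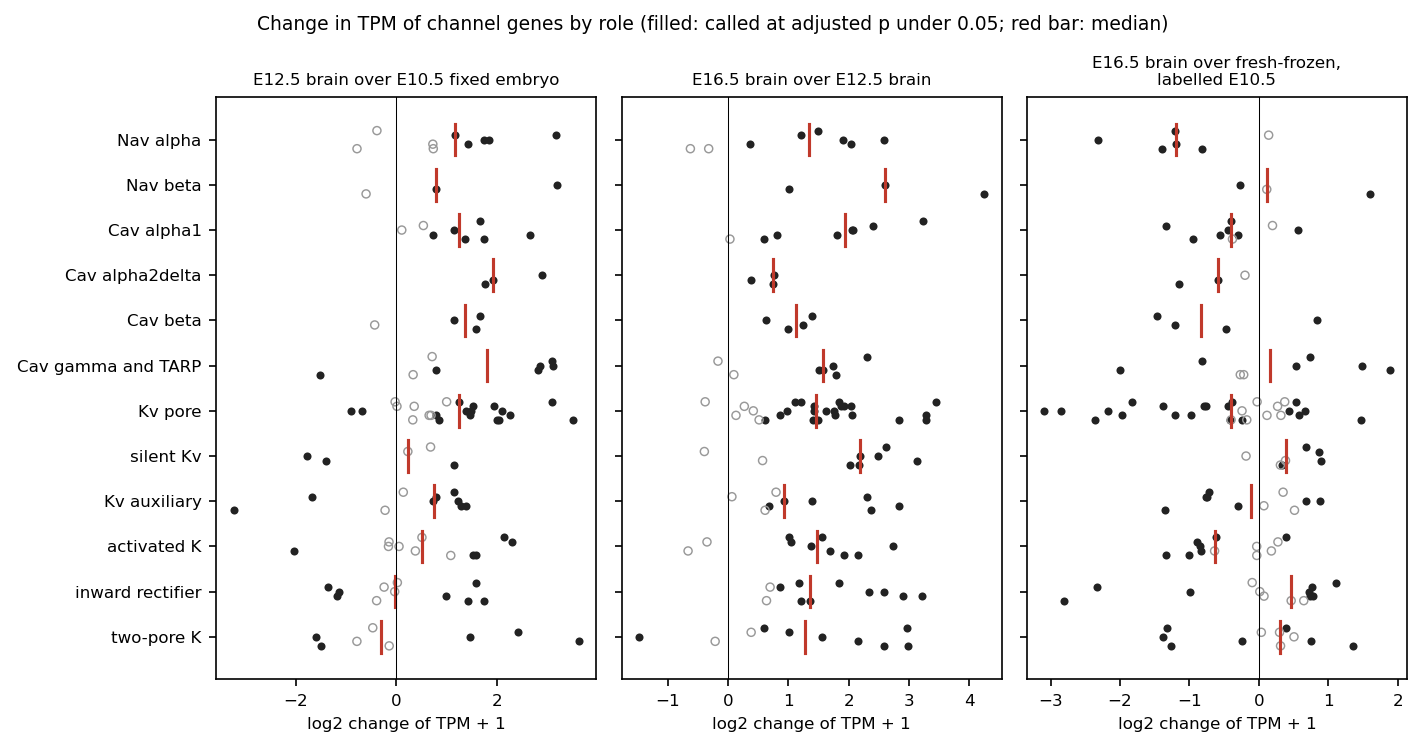
log2 change of TPM + 1 (x axis) of each tested channel gene by role (rows), in 3 panels: E12.5 brain over fixed E10.5 embryo, E16.5 over E12.5 brain, and E16.5 brain over the libraries labelled E10.5 fresh-frozen; filled points were called, open points were not, and the red bar is the median of the role. In the middle panel nearly every point lies to the right of 0, with Kcnk5 lowest at −1.47, while in the right panel points spread to both sides of 0.

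The comparison of E12.5 brain with the fixed E10.5 embryo set a brain against a whole embryo, so tissue and stage cannot be told apart; the heart markers above differ between them by orders of magnitude. Of 103 channel genes tested, 56 were higher in E12.5 brain and 13 lower, where 29.3% of all 20248 genes were higher and 19.6% lower. After the common shift of 0.29 the counts were 51 and 16 of 101 tested, against 20.02% and 27.8% of all genes. The median log2 change was 0.85 over the channel genes and 0.13 over all genes. Of the partners, 20 of 31 tested were higher and 3 lower.

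Calls of higher expression in E12.5 brain were made for 5 of 9 tested sodium channel pores, 6 of 8 calcium channel pores and 14 of 23 voltage-gated potassium channel pores, with 0, 0 and 2 lower. Scn3a had 15.7 and 15.1 TPM in G3BP1 and 26.1 and 22.2 TPM in IgG libraries of E12.5 brain against 0.826, 1.14, 1.91 and 1.23 TPM in the embryo (log2 change 3.18 ± 0.19), and Scn3b moved by 3.20 ± 0.19. Cacng4 averaged 547 ± 82.1 TPM in E12.5 brain and 62.6 ± 6.67 TPM in the embryo (3.1 ± 0.12, adjusted p = 7.40e-07). The groups did not overlap for any of these genes. The other AMPA receptor partners Cacng2, Cacng3 and Cacng8 moved by 2.82, 3.12 and 2.86, although Cacng3 ranged from 3.41 to 30.05 TPM within E12.5 brain. Cacna2d3, an alpha2delta subunit, was higher by 2.91 ± 0.23. Among potassium channels, the mechanosensitive leak channel Kcnk10 averaged 37.6 ± 6.67 TPM in E12.5 brain and 2.07 ± 0.280 TPM in the embryo (3.64 ± 0.15), and the ELK-type pore Kcnh4 36.9 ± 6.17 TPM in E12.5 brain and 2.35 ± 0.706 TPM in the embryo (3.51 ± 0.20).

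Lower calls were spread over several roles: 3 of 11 tested inward rectifiers were lower and 4 higher, 2 of 10 auxiliary subunits lower and 6 higher, 2 of 8 two-pore channels lower and 3 higher, and 2 of 5 silent modifiers lower and 1 higher. Kcne3, a partner of epithelial Kcnq1 channels, had 0, 0, 0 and 0.764 TPM in E12.5 brain against 14.2 and 12.3 TPM in G3BP1 and 6.83 and 7.93 TPM in IgG libraries of the embryo (−3.24 ± 0.32, adjusted p = 6.56e-05). It was listed at 0 in 3 of the 4 E12.5 libraries. Kcnk1, a weak inward leak channel, averaged 5.21 ± 2.47 TPM in E12.5 brain and 16.2 ± 4.09 TPM in the embryo (−1.51 ± 0.30), and Kcng1 1.88 ± 0.988 TPM in E12.5 brain and 6.35 ± 1.21 TPM in the embryo (−1.40 ± 0.29). The calls of Kcnk1 and Kcng1 were lost when G3BP1 libraries alone were compared, with values of −1.11 and −0.90. Kcnj11 was lower by 1.18 in E12.5 brain than in the embryo, and both Kcng1 and Kcnj11 were higher in E16.5 than in E12.5 brain.

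Set against the libraries labelled E10.5 fresh-frozen, E16.5 brain had 27 of 114 tested channel genes higher and 52 lower, where 23.0% of all 23026 genes were higher and 37.8% lower. The shares of channel genes were 23.7% and 45.6%, and after the common shift of −0.17 the counts were 34 and 44, against 29.3% and 32.8% of all genes. Label, stage and table cannot be told apart here. Of the sodium channel pores tested, 0 of 6 were higher and 5 lower. Scn3a had 47.5 and 42.0 TPM in G3BP1 and 46.8 and 46.5 TPM in IgG libraries of E16.5 brain against 197, 218, 251 and 260 TPM under the fresh-frozen label (−2.31 ± 0.08, adjusted p = 2.79e-08). Scn2a was lower by 1.20 ± 0.08 and Scn8a by 1.20 ± 0.11 on the log2 scale.

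Individual potassium channels differed most. Kcna3, a delayed rectifier known from lymphocytes and microglia, had 0 and 0.923 TPM in G3BP1 and 0.646 and 0.240 TPM in IgG libraries of E16.5 brain against 12.9, 5.46, 12.3 and 16 TPM under the fresh-frozen label (−3.09 ± 0.32). Its untreated libraries of that label were higher still, at 67.0 and 48.0 TPM. Kcnh8, an ELK-type pore, averaged 6.11 ± 1.05 TPM in E16.5 brain and 50.5 ± 8.77 TPM under the label (−2.86 ± 0.16). For the G protein-gated rectifier Kcnj6 the means were 0.573 ± 0.0808 TPM in E16.5 brain and 9.96 ± 0.965 TPM under the label (−2.80 ± 0.17), and for the axonal pore Kcna1 0.442 ± 0.0440 TPM in E16.5 brain and 6.499 ± 1.33 TPM under the label (−2.36 ± 0.21). The delayed rectifier Kcnb2 was lower by 2.18, the ERG-type pore Kcnh7 by 1.97, the EAG-type pore Kcnh5 by 1.82 and Cacng2 by 2.00. Kcnj13 was lower by 2.33, but 49.1% of its exon bases are shared with Gigyf2. Higher in E16.5 brain were Cacng7 (250 ± 14.2 TPM in E16.5 brain and 72.3 ± 36.8 TPM under the label, 1.88 ± 0.22), Cacng8 (1.49), Kcna6 (1.47, with 39.6% of exon bases shared with an opposite-strand gene), Kcnk9 (1.36), Kcng1 (0.90), Kcnab3 (0.89), Kcns1 (0.87), Cacnb3 (0.83) and Kcnj11 (0.78). Partners were higher in 12 and lower in 14 of 32 tested.

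The antibody changed no channel transcript level past the threshold. limma called 0 of 69, 109, 90 and 104 tested channel genes between G3BP1 and IgG libraries of the fixed embryo, the fresh-frozen label, E12.5 brain and E16.5 brain, with 2, 22, 10 and 14 at an unadjusted p under 0.05. Those were 2.90%, 20.2%, 11.1% and 13.5% of the channel genes tested, against 11.4%, 12.3%, 13.6% and 9.92% of all genes. Among all genes, 0.0% were called in the first 3 tables and 0.0108% were called higher in E16.5 brain. The log2 change was below 0 for 50, 83, 67 and 79 of these channel genes in that order. Medians were −0.15, −0.23, −0.29 and −0.15 over channel genes and −0.12, −0.00, −0.15 and −0.02 over all genes.

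Editing was measured at 62 channel sites in the fixed embryo, 736 under the fresh-frozen label, 592 at E12.5 and 2368 at E16.5, keeping sites with at least 10 reads in every library of their table. Between 78.9% and 85.4% of them lay in 3' UTRs, against 65.1% to 72.0% of all kept sites. Under the fresh-frozen label, edited reads made up 1.12% and 1.12% of reads at channel sites in G3BP1 libraries, 0.606% and 0.517% in IgG libraries and 0.381% and 0.371% in untreated libraries. Each antibody group stood clear of the next, and the ratio of G3BP1 to IgG was 2.00 at channel sites and 1.90 at all sites. In E16.5 brain the shares were 0.310% and 0.326% with G3BP1 and 0.188% and 0.183% with IgG, a ratio of 1.71 at channel sites and 1.62 at all sites. The antibody difference was larger at A-to-G sites: in E16.5 brain their share was 0.501% with G3BP1 and 0.235% with IgG, where C-to-T sites had 0.224% with G3BP1 and 0.160% with IgG. Intervals on these shares cover counting error only, since reads carry no molecular identifiers. They also do not allow for a read that covers several kept sites and is counted at each.

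In E12.5 brain the channel sites had no excess with G3BP1, unlike the sum over all its sites; that contrast was not tested. Their shares were 0.166% and 0.149% with G3BP1 and 0.165% and 0.160% with IgG, a ratio of 0.970, while the ratio over all 126802 kept sites was 1.95. Those channel shares rest on 47 and 51 edited reads in G3BP1 and 20 and 54 in IgG libraries, and 505 of the 592 sites had no edited read. With sites of 1 alternative allele only, a choice made after the data were seen, the channel ratio was 1.23 and the ratio over all sites 1.97. In the fixed embryo the channel shares were 0.386% and 0.601% with G3BP1, 0.383% and 0.345% with IgG and 0.389% and 0.946% in untreated libraries, and they rest on 15 to 40 edited reads per library. In the second untreated library 6 of the 15 edited reads came from 1 site of Cacna1a, without which, a choice made after the data were seen, its share was 0.571%, below the 0.604% of the second G3BP1 library.

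**Figure D4:**
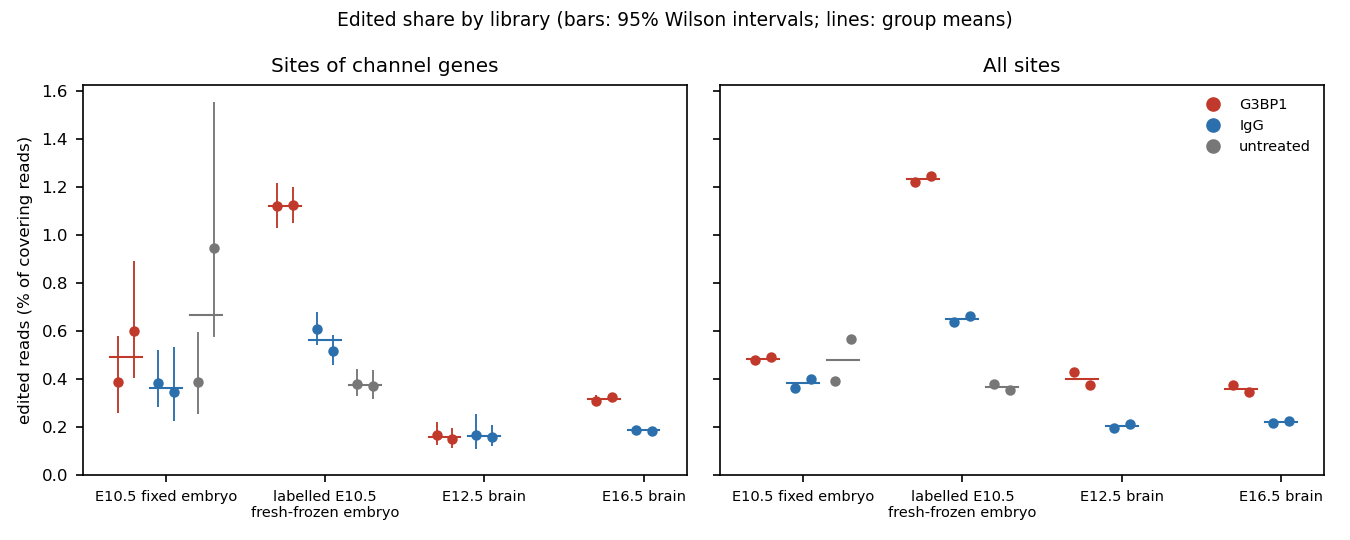
Percent of reads edited (y axis) in each library, with 95% Wilson intervals, at channel gene sites (left) and at all kept sites (right), by table and antibody; each point is 1 library. Under the fresh-frozen label channel sites lie at 1.12% with G3BP1 against 0.517% to 0.606% with IgG, whereas in E12.5 brain they lie at 0.149% to 0.166% with either antibody.

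Per gene, G3BP1 and IgG libraries were compared with a quasi-binomial logistic model over all genes with at least 50 such reads per library. Reads were summed over the kept sites of a gene, so a read covering several sites is counted at each of them. Under the fresh-frozen label, 2 of 43 tested channel genes were edited more with G3BP1 and none less, where 1.4% of all 7836 genes were called higher and 0.0% lower. Those were Scn2a and Kcnd2. Edited reads of Scn2a were 48 of 2416 (1.99%) and 85 of 3746 (2.27%) with G3BP1, 9 of 2487 (0.362%) and 11 of 2972 (0.370%) with IgG, and 0.103% and 0.154% in untreated libraries. Every G3BP1 library was above every other, with a log2 odds ratio of 2.55 ± 0.48 (SE, adjusted p = 0.00536). For Kcnd2 they were 40 of 811 (4.93%) and 67 of 1170 (5.73%) with G3BP1 and 6 of 1003 (0.598%) and 11 of 751 (1.46%) with IgG, with 0.217% and 0% in untreated libraries (2.51 ± 0.54, adjusted p = 0.0145). Leaving out any 1 of the 4 libraries ended both calls, with log2 values of 2.43 to 2.63 for Scn2a and 1.92 to 3.19 for Kcnd2. The next channel gene was Cacng4, with 1.26% and 0.967% with G3BP1 and 0.474% and 0.323% with IgG (1.47 ± 0.44, adjusted p = 0.103). Over genes, both G3BP1 libraries lay above both IgG libraries for 22 of the 43 and below for 2, against 47.1% and 4.48% of all genes.

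In E16.5 brain 5 of 73 tested channel genes were edited more with G3BP1 and none less, where 5.91% of all 11741 genes were higher and 0.0% lower. Kcnd2 had the smallest adjusted p, with 25 of 3322 (0.753%) and 55 of 5193 (1.06%) reads edited with G3BP1 and 0.209% and 0.349% with IgG (1.80 ± 0.41, adjusted p = 0.00371). Scn3a had 0.530% and 0.487% with G3BP1 against 0.264% and 0.147% with IgG (1.24 ± 0.33, adjusted p = 0.0144). The shares of Scn2a were 0.458% and 0.505% with G3BP1 against 0.193% and 0.280% with IgG (1.08 ± 0.33, adjusted p = 0.0356). For Cacna2d1, an alpha2delta subunit, they were 0.327% and 0.387% with G3BP1 against 0.232% and 0.144% with IgG (0.89 ± 0.29, adjusted p = 0.0471). For these 4 genes the antibody groups did not overlap. Kcnk9 was also called (1.83 ± 0.49, adjusted p = 0.0151), but its G3BP1 libraries were at 0.114% and 0.707% and its IgG libraries at 0.144% and 0.129%, so the groups overlapped, and without the second G3BP1 library its log2 value was −0.23. Without any 1 library, between 0 and 1 of the 5 calls were made. Both genes called under the fresh-frozen label were among the 5 of E16.5 brain, a share of 100% of the first list and 40% of the second. Over all genes the shares were 76.1% and 11.99%. Over genes, both G3BP1 libraries lay above both IgG libraries for 35 of the 73 and below for 3, against 42.1% and 5.4% of all genes. Among partners 8 of 31 tested were called higher, among them Ank2, Ank3, Cntn1, Cntnap2, Dpp10, Nalcn and Nedd4l.

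**Figure D5:**
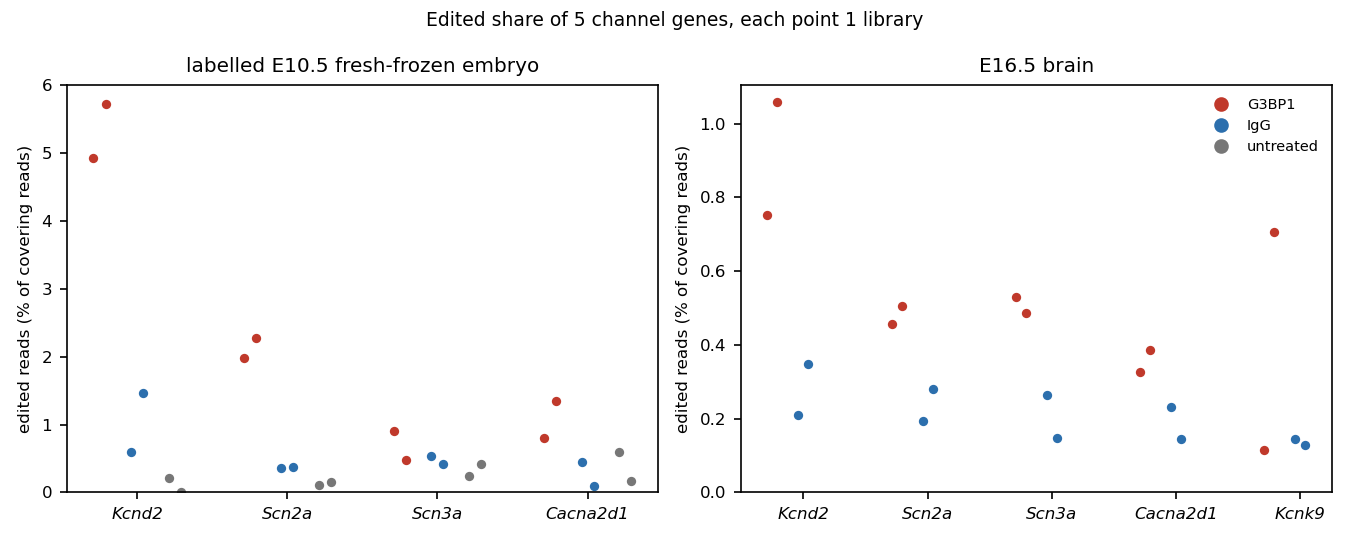
Percent of reads edited (y axis) over the kept sites of Kcnd2, Scn2a, Scn3a and Cacna2d1 (fresh-frozen label and E16.5 brain) and of Kcnk9 (E16.5 brain); each point is 1 library, coloured by antibody. Kcnd2 under the fresh-frozen label shows the widest gap, 4.93% and 5.73% with G3BP1 against 0.598% and 1.46% with IgG, and Kcnk9 shows 1 high G3BP1 library at 0.707%.

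In the other tables no channel gene was called. The same model called 0 of 16 in E12.5 brain and 0 of 7 in the fixed embryo, with 0 and 1 at an unadjusted p under 0.05, and edgeR and limma on the logit also called 0. Among all genes 0.0% were called in E12.5 brain and 0.0179% were called higher in the fixed embryo. Cacnb3 had the smallest p in both: in the fixed embryo 0.421% and 0.707% of reads were edited with G3BP1, 0.130% and 0.0939% with IgG and 0.272% and 0.358% in untreated libraries. Both G3BP1 libraries lay above both IgG libraries for 1 of 7 genes in the fixed embryo and 2 of 16 in E12.5 brain, and below for 1 and 2, against 21.6% and 27.6% of all genes above and 12.2% and 3.41% below. IgG set against untreated libraries gave 0 calls in both embryos, where 0.0% of all genes were called, with 0 channel genes in the fixed embryo and 1 under the fresh-frozen label at an unadjusted p under 0.05. For the 8 channel genes tested for an antibody difference that differed between E16.5 and E12.5, over the sites kept in both tables, 0 were called, as were 0.0% of all 2804 genes, with 0 at an unadjusted p under 0.05.

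At single sites, both G3BP1 libraries lay above both IgG libraries at 6 of the 30 kept sites of Kcnd2 under the fresh-frozen label. Sites A, B and C are among these. They lie close together in the 3' UTR, so 1 read may cover several of them and their counts are not independent. Site A was edited in 10 of 22 (45.5%, 95% Wilson interval 26.9% to 65.3%) and 11 of 39 (28.2%) reads with G3BP1, against 0 of 19 and 0 of 14 with IgG and 0 of 27 and 0 of 21 in untreated libraries. A count of 0 at those IgG depths allows a share of up to 15.8% and 21.4%. Site B had 8 of 23 and 7 of 49 with G3BP1 against 0 of 34 and 0 of 18 with IgG, and site C 3 of 26 and 9 of 50 with G3BP1 against 0 of 35 and 0 of 21 with IgG. All 3 were edited in both G3BP1 libraries and in no IgG or untreated library. They had been picked for the largest excess among sites whose antibody groups did not overlap, so the separation from IgG follows from the choice. In E16.5 brain site C had 1 of 48 and 7 of 75 edited reads with G3BP1 and 0 of 87 and 0 of 77 with IgG, while site A had 2 of 52 and 5 of 86 with G3BP1 and 2 of 94 and 3 of 79 with IgG. Site A held 19.6% of the 107 edited reads of Kcnd2 in G3BP1 libraries, and 85 of the 107 were at A-to-G sites.

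The other called genes were examined at the site with their most edited reads. The coding site of Scn2a had 3 of 121 (2.48%) and 18 of 225 (8%) edited reads with G3BP1 under the fresh-frozen label, against 2 of 156 (1.28%) and 2 of 174 (1.149%) with IgG. Its 3' UTR site had 5 of 215 (2.33%) and 13 of 290 (4.48%) with G3BP1 in E16.5 brain against 3 of 340 (0.882%) and 5 of 308 (1.62%) with IgG. Under the fresh-frozen label the same site had 1 of 55 and 7 of 91 with G3BP1 against 0 of 35 and 0 of 58 with IgG. The G3BP1 libraries were above the IgG libraries at each of these. Sites with the most edited reads were picked by G3BP1 libraries, which favours this order in the tissue where they were picked. The Cacna2d1 site had 6 of 76 and 5 of 196 with G3BP1 against 0 of 148 and 0 of 108 with IgG under the fresh-frozen label, where the gene was not called. In E16.5 brain, where it was called, its site with the most edited reads had 5 of 184 and 6 of 288 with G3BP1 and 3 of 284 and 2 of 194 with IgG. At the Scn3a C-to-T site, E16.5 brain had 6 of 107 and 1 of 162 with G3BP1 against 0 of 203 and 0 of 138 with IgG. Another Scn3a site had the most edited reads under the fresh-frozen label, with 2 of 55 and 2 of 91 with G3BP1 and 2 of 60 and 2 of 49 with IgG, so the shares overlapped. The leading Kcnk9 site of E16.5 brain had 0 of 57 and 9 of 105 with G3BP1 and 0 of 138 and 1 of 116 with IgG. In Scn3a 21 of 100 edited reads with G3BP1 were at A-to-G sites, while in Scn2a 66 of 87 were.

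Across all channel sites, both G3BP1 libraries lay above both IgG libraries at 64 of 736 sites under the fresh-frozen label and 98 of 2368 in E16.5 brain, and below at 13 and 33. Among all sites the shares above were 8.07% and 4.84% and those below 1.24% and 1.65%. In E12.5 brain 3 of 592 channel sites were above and 1 below, where 1.38% and 0.235% of all sites were, and in the fixed embryo 0 of 62 were above and 1 below, where 1.69% and 2.32% of all sites were. Of the channel genes known to be recoded by A-to-I editing, Kcna1 had no kept site in any table. Cacna1d had 11 kept sites under the fresh-frozen label, of both base changes, edited in 0.735% and 2.49% of reads with G3BP1, 0.676% and 0% with IgG and 2.35% and 2.23% in untreated libraries. Its 31 kept sites in E16.5 brain were edited in 0.414% and 0.206% of reads with G3BP1 and 0.222% and 0.185% with IgG. These shares pool all kept sites of the gene and do not single out the recoded position.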

How the data were processed

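The authors deposited, for each of 4 tissues, a table of TPM per gene and an editing table that holds, per the file headers, a count of reads covering each site and a count of edited reads for each library. The submitters' processing notes name featureCounts 2.0.1, Subread, GATK 4.5.0.0, Picard 3.1.1, HISAT2 2.2.1 and BWA 0.7.17 with the builds GRCm38 and mm10; no source used here gives the site calling rule, the annotation or the use of strand. In most deposited tables a count of 1 edited read is rarer than a count of 2 (185 against 677 at channel sites under the fresh-frozen label), so low shares may be understated.

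The channel genes, roles and lists were chosen with earlier results of these data known. Groups were taken from the labels, and no sample was paired with another. Stage comparisons used TPM rescaled to the genes shared by both tables, genes with 1 TPM or more in 2 or more libraries, log2(TPM + 1), and limma 3.58.1 with the antibody as a covariate (R 4.3.3), on the 4 antibody libraries per tissue. A fold change on that scale understates the change of low genes. Editing used sites read at least 10 times in every library, after removal of repeated lines, summed per gene with 50 or more reads in every library, and a quasi-binomial logistic model with 0.25 reads added to edited and unedited reads, Pearson dispersion moderated by squeezeVar and kept at 1 or more. Fits ran over all genes, with Benjamini-Hochberg adjustment and a threshold of 0.05. edgeR 4.0.16 on edited and unedited counts, limma on the empirical logit, other site depths, single base changes, scalings, pseudocounts, a replicate block and leaving out each library were the alternatives. Reads summed over all kept channel sites, each read counted at every such site it covers, differed between libraries. These sums ran from 1586 to 10447 in the fixed embryo, 38776 to 75334 under the fresh-frozen label, 12101 to 34166 in E12.5 brain and 251936 to 491832 in E16.5 brain. Sequencing depth behind the TPM values is unknown. Tested on simulated data, the editing model recovered 83.65% of genes changed by 2 on the log2 scale under the fresh-frozen label (of 8037 genes), 92.66% in E16.5 brain (of 11741 genes), 91.43% in E12.5 brain (of 5568 genes) and 81.19% in the fixed embryo (of 6794 genes), and limma with 4 against 4 recovered 71% of genes changed by the same amount (of 18010 genes). Genes tested on the real data numbered 7836 under the fresh-frozen label and 5594 in the fixed embryo. These rates do not hold for the channel genes, whose SE on the log2 scale ran from 0.744 to 2.89 in E12.5 brain. In the fixed embryo it ran from 0.869 to 2.67. The 0 calls in those 2 tissues therefore cannot be read as no difference.

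Genes named with values were, per stage comparison, the 10 higher and 10 lower called channel genes with the largest log2 change, a mean of at least 5 TPM in the higher group and no overlap of groups, except that the text also names pore subunits, the most abundant genes and a few low or uncalled genes chosen after their values were seen; per editing comparison, the called genes or the 3 with the smallest p. The reference base of 3750 channel site lines was checked against GENCODE M21 transcripts, with 0 mismatches and 8 without a transcript base. Results on some genes are not reported here. Figures used Python 3.11.15 and matplotlib 3.10.9.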

Additional observations from a re-analysis of the deposited data

Results flagged for a closer look

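For 4 channel genes every G3BP1 library lay below every IgG library in 1 tissue and above in another. How many of all genes did so was not counted. Within single tissues, 21.6% to 47.1% of all genes lay above and 3.41% to 12.2% below. The difference between tissues was tested only between E16.5 and E12.5 brain and only over the sites kept in both. There the log2 difference (E16.5 minus E12.5) was −1.14 ± 2.36 for Cacna1g at 7 sites, against the direction of the shares below, and 1.002 ± 1.58 for Cacna2d2 at 12 sites, neither of them called (SE; adjusted p = 0.996 for both). Edited shares of Cacna1g, a T-type calcium channel pore, differed by −0.156 percentage points in E12.5 brain (0.108% and 0.144% with G3BP1, 0.277% and 0.287% with IgG) and by 0.120 points in E16.5 brain (0.233% and 0.247% with G3BP1, 0.114% and 0.127% with IgG). Those of Cacna2d2, an alpha2delta subunit, differed by −0.229 points in E12.5 brain (0.0549% and 0.0423% with G3BP1, 0.285% and 0.270% with IgG) and by 0.0753 points in E16.5 brain (0.317% and 0.307% with G3BP1, 0.248% and 0.226% with IgG). In E12.5 brain Cacna2d2 had 1 edited read in each G3BP1 library and 2 and 6 in the IgG libraries. Edited reads of Cacna1g there were 3 and 4 with G3BP1 and 3 and 8 with IgG. Those of Cacng4 in the fixed embryo were 2 and 0 with G3BP1 and 7 and 2 with IgG. Kcnip3 had 0 and 2 with G3BP1 and 2 and 6 with IgG under the fresh-frozen label. In the fixed embryo Cacng4 differed by −0.554 points (0.465% and 0% with G3BP1, 1.05% and 0.528% with IgG), under the fresh-frozen label by 0.713 points and in E16.5 brain by 0.0602 points (0.178% and 0.201% with G3BP1, 0.146% and 0.112% with IgG). Kcnip3, a calcium-binding auxiliary subunit of A-type channels, differed by −1.13 points under the fresh-frozen label (0% and 0.639% with G3BP1, 0.930% and 1.97% with IgG) and by 0.727 points in E16.5 brain (0.990% and 0.701% with G3BP1, 0.237% and 0% with IgG).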

How the results depend on the processing

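Single-gene values kept direction and side of the threshold in 889 alternative fits run on named genes, many of which had no call to lose. Another 53 fits lost the call and 6 changed sign. Nearly all lost calls were editing calls. Under the fresh-frozen label Scn2a lost its call in 8 fits and kept it in 7, and Kcnd2 in 9 and 6. In E16.5 brain the fits that lost and kept the call were 6 and 9 for Kcnd2, 8 and 7 for Scn3a, and 6 and 8 for Kcnk9. They were 7 and 8 for both Scn2a and Cacna2d1. The sign changes were Cacng7 in the fixed embryo with A-to-G sites only (0.72), Cacna1g and Kcnh2 for IgG over untreated in the fixed embryo without 1 library (from −4.12 to 0.0877 and from −1.04 to 2.51 over the libraries left out), Kcnk9 in E16.5 brain without G3BP1 replicate 2 (−0.23, and up to 2.34 without another library), and the gain at E16.5 over that at E12.5 without 1 library (−0.45 to 3.23 for Cacna1h, −1.04 to 1.60 for Cacna2d2). Only Kcnk9 among these had been called. Under the fresh-frozen label the 2 calls became 5 at 5 reads per site, 1 at 20 reads, and 0 with C-to-T sites, with limma on the logit, against the median change of all genes, or without any 1 library (0 to 0). In E16.5 brain the 5 calls became 0 with C-to-T sites, limma or the median change, and 0 to 1 without any 1 library, and edgeR called 1 gene lower. Replicates of the same number did not deviate together over all genes (correlations of −0.044 to 0.014). With 2 replicates per group this cannot settle whether they shared an animal or section, which the labels do not state. With a replicate block there were 0 calls under the fresh-frozen label and 6 in E16.5 brain. Between stages, the count lower at E16.5 than at E12.5 was 5 at a common median, 2 with G3BP1 libraries only and 1 to 4 without 1 library (4 without IgG replicate 1 of E12.5 brain). The 13 genes lower in E12.5 brain than in the fixed embryo became 7 with IgG and 5 with G3BP1 libraries only, and the 27 higher in E16.5 brain than under the fresh-frozen label became 16 with IgG libraries only. The ratio of edited shares was 2.36 at A-to-G and 1.61 at C-to-T sites under the fresh-frozen label (IgG over untreated 1.957 and 1.19), 2.09 and 1.41 in E16.5 brain, and in E12.5 brain 1.17 at 5 reads, 1.12 at 20 reads, 1.08 at A-to-G, 0.837 at C-to-T and 1.23 at sites with 1 alternative allele. IgG over untreated in the fixed embryo ranged from 0.385 to 0.934 without 1 library. The alternatives for the ratios of shares, the sites with 1 alternative allele and those listed under 1 gene were chosen after seeing the data. The cause of these changes was not tested. In E12.5 brain and the fixed embryo 16 and 7 channel genes had enough reads to be tested.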

Other observations

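One channel site was edited often with both antibodies. The Kcnk2 site printed in the report, in a mechanosensitive leak channel, was edited in 32 of 90 (35.6%) and 36 of 174 (20.7%) reads with G3BP1 and 34 of 157 (21.7%) and 15 of 114 (13.2%) with IgG in E16.5 brain. Under the fresh-frozen label it had 7 of 22 and 11 of 51 edited reads with G3BP1, 9 of 28 and 7 of 28 with IgG, and 0 of 33 and 0 of 34 in untreated libraries, which allows a share of up to 9.09% and 8.82%.

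The base before the edited base was tallied for sites with and without separation of the antibody groups. Among A-to-G channel sites where both G3BP1 libraries lay above both IgG libraries, T preceded 43.1% of 51 sites under the fresh-frozen label and 40.4% of 57 in E16.5 brain. Among the other A-to-G channel sites the shares were 25.6% of 277 and 23.6% of 788. A preceded 31.4% and 35.1% of the separated A-to-G sites in that order, against 36.1% and 26.3% of the others. At C-to-T sites of E16.5 brain, A preceded 70.7% of 41 separated sites and 32.4% of 1482 others. Under the fresh-frozen label it preceded 30.8% of 13 separated C-to-T sites and 35.7% of 395 others. None of these differences was tested.

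One untreated library of the fixed embryo had 6 of 10 reads edited at a coding C of Cacna1a (chr8:84639288-84639288), with 0 edited reads in the other 5 libraries. In the fixed embryo Scn4a, the skeletal muscle pore, was at 0.442 and 5.16 TPM in G3BP1 libraries and at 0.493 TPM or less in the others.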
